A study of Mus musculus with 10 samples.

Results

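The load and stretch response genes of cardiomyocytes comprised 10 genes, chosen by name: Acta1, Ankrd1, Ankrd2, Ankrd23, Xirp1, Xirp2, Csrp3, Rcan1, Fhl1 and Fhl2. They were found among the 22911 named genes on the arrays through the RefSeq identifier of each probe. All 10 genes were found, on 11 of 56605 probes (Ankrd23 had 2), and all 11 probes were well above background on all 10 arrays. Hearts of C57BL/6N mice, with no genetic change, treatment or age given in the labels, were divided into the right ventricle (RV, 4 arrays), the left ventricle (LV, 3 arrays) and the ventricular septum (3 arrays), and RNA from each tissue was hybridised to a single-colour Agilent array. The comparison asked how the RV, which pumps into the low-pressure circulation of the lung, differed from the rest of the ventricular wall. All 10 markers of cardiomyocytes were well above background on all 10 arrays. The tissue is a mixture of cells, so that fewer cells of a type and less RNA per cell cannot be told apart.

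A heart muscle cell senses mechanical load at the Z-disc, along the elastic protein titin and at its contacts with neighbouring cells. Some proteins at these sites also move to the nucleus, and their genes are known for a rise in expression when the ventricle is stretched or has to work against a higher pressure. The set covers a fetal and skeletal form of actin (Acta1), the muscle ankyrin repeat proteins that bind titin (Ankrd1, Ankrd2, Ankrd23), the Xin actin-binding proteins of the intercalated disc (Xirp1, Xirp2), LIM-domain proteins of the Z-disc and of titin's spring (Csrp3, Fhl1, Fhl2) and a feedback inhibitor of the phosphatase calcineurin (Rcan1).

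The promoters of 4 of these genes are shown because 3 of them held an M-CAT motif (CATTCC, searched on both strands), the site bound by the TEAD factors that load-responsive signalling can drive, and because the fourth, Csrp3, was the gene called against both other regions. RefSeq windows of 300 bases, from 250 before to 50 after a transcript start (GRCm38.p6), were at hand for 9 of the 10 genes, in 14 windows. The 250 bases before the start are printed 5′ to 3′ on the strand of the gene, and capitals mark M-CAT, the CArG box bound by serum response factor and the TATA box. Acta1 lies at chr8:123894776-123895025, Ankrd1 at chr19:36119845-36120094, the second of 2 Ankrd23 windows at chr1:36535740-36535989 and the first of 2 Csrp3 windows at chr7:48848052-48848301, all on the minus strand.
Acta1: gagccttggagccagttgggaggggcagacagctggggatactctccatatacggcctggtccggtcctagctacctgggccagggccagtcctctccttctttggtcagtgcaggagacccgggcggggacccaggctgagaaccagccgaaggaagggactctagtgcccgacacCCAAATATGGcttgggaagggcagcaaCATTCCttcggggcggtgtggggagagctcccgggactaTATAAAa
Ankrd1: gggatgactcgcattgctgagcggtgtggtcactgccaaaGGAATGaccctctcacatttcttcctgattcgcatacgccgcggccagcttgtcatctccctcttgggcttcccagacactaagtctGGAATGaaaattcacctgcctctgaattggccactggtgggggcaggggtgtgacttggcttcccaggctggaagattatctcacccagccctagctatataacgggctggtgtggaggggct
Ankrd23: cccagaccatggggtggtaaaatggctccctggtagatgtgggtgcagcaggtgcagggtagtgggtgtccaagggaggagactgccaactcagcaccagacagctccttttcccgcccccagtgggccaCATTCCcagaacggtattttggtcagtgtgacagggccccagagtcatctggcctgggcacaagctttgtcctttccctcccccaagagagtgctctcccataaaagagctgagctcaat
Csrp3: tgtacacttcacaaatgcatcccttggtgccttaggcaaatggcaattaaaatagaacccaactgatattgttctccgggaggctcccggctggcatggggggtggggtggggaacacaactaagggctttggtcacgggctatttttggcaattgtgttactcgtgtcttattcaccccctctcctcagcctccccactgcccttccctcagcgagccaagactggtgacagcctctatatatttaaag
Acta1 held a CArG box at bases -73 to -64 from the start and M-CAT at -46 to -41, without overlap. Ankrd1 held M-CAT 2 times on the opposite strand, at -210 to -205 and at -123 to -118. In Ankrd23 the motif lay at -120 to -115, and in the window not printed it lay after the start, at 36 to 41. The printed Csrp3 window held none of the motifs in capitals. M-CAT occurred in 4 of the 14 windows, of 3 of the 9 genes, and in 14.7% of all 32851 RefSeq windows. A CArG box occurred in 4 of the 14 and in 1.63% of all. Among the genes studied here, a CArG box was found in Acta1, Fhl1 and Fhl2. The letters of the TATA box (TATAAA, searched on both strands) occurred in 13.6% of all windows. They lay at -7 to -2 in Acta1 and at -29 to -24 in Ankrd2. On the opposite strand they lay at -156 to -151 in Fhl1 and at -28 to -23 in Fhl2. The binding site of MEF2, searched as the MEF2 box, was found in Fhl2 and Xirp2 (3.19% of all windows). The core of NFAT sites (GGAAA), present in 61.3% of all windows, was found in 5 of the 14, of Ankrd23, Csrp3, Fhl1 and Rcan1. These are matches of letters, and no binding was measured.

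Most of the genes were lower in the RV than in either other region, and few of the differences passed the test. A level is the log2 signal relative to the 75th percentile of its array, and a difference was called when limma's p, adjusted by the Benjamini-Hochberg method over 30234 probes, was below 0.05. The mean level in the RV was below that in the LV for 9 of 10 genes, against 57.0% of all probes, and below that in the septum for 9 of 10, against 57.3%. The median difference of the 10 genes was -0.52 for RV minus LV, where all probes had -0.037, and -0.45 for RV minus septum, where all probes had -0.032. Against the LV, Ankrd23 and Csrp3 were called lower (2 of 10). Of all probes, 1.55% were called lower in the RV and 3.86% in either direction. Against the septum, Csrp3 was called lower (1 of 10), and 0.873% of all probes were called lower and 2.08% in either direction. Both comparisons used the same RV arrays. The septum and the LV did not differ by the test in any of these genes, nor was any probe called (0%).

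**Figure D1:**
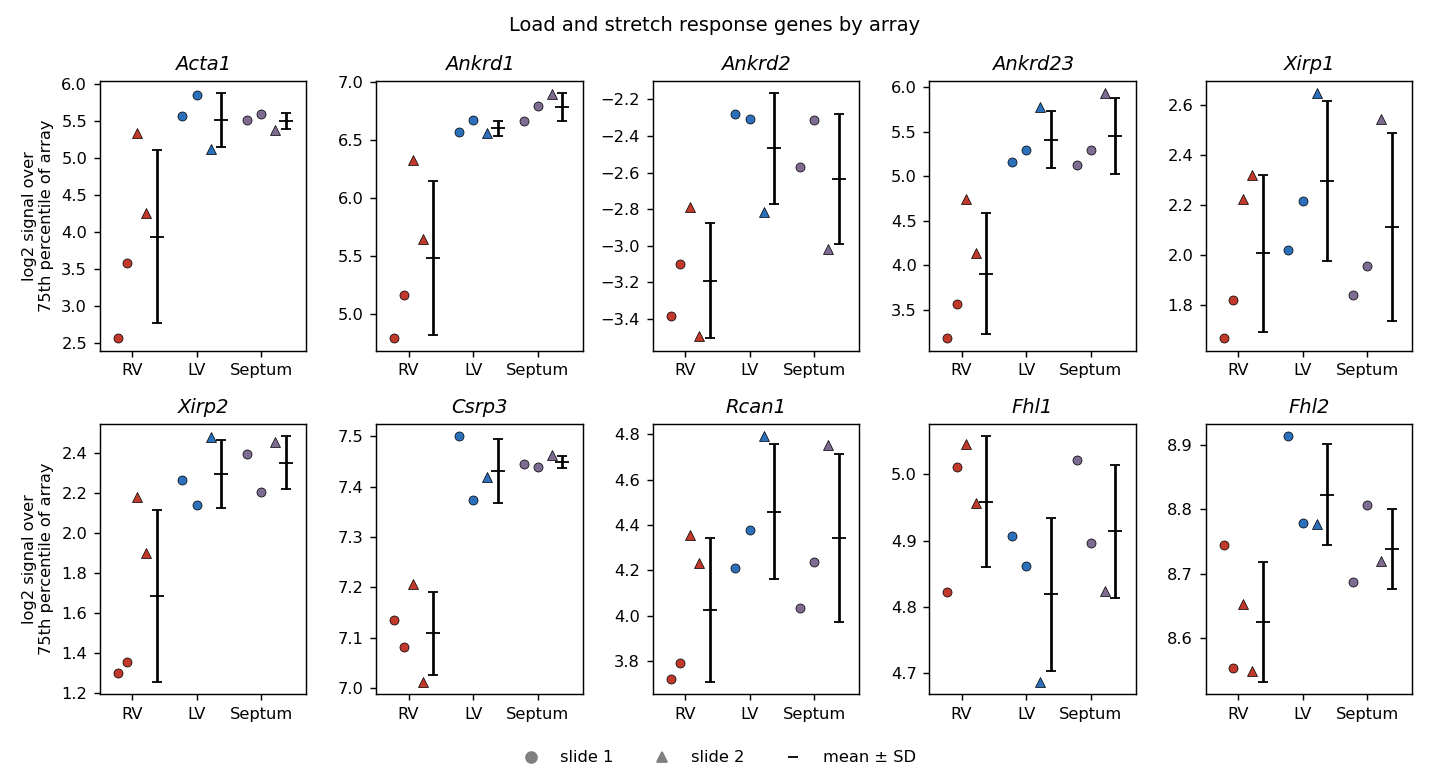
Each panel plots 1 gene, with the log2 signal relative to the 75th percentile of the array on a vertical axis of its own range. Points are the 10 arrays by region, circles on slide 1 and triangles on slide 2, and the bar beside them is the mean ± SD. Acta1 in the RV spreads from 2.56 to 5.35, whereas all 4 RV arrays of Csrp3 lie below all LV and septum arrays.

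Acta1 encodes skeletal muscle alpha-actin, which the heart makes before birth and again under pressure load. Its level in RV arrays 1 to 4 was 2.56, 3.58, 5.35 and 4.26, against 5.57, 5.85 and 5.13 in LV arrays 1 to 3 and 5.52, 5.60 and 5.38 in septum arrays 1 to 3. RV arrays 1, 2 and 4 lay below every other array, while RV array 3 lay above LV array 3 and just under the lowest septum array. The RV mean was 3.94 ± 1.17 (SD, n = 4) and the LV mean 5.52 ± 0.36 (SD, n = 3), a log2 difference of -1.58 with a 95% interval of -2.76 to -0.40. This was not called (adjusted p = 0.133), nor was the difference from the septum of -1.56 (adjusted p = 0.208), and with RV array 3 left out both were called, at -2.05 and -2.04. Within slide 1 the RV minus LV difference was -2.64 and within slide 2 it was -0.33. Slide 2 held 1 LV and 1 septum array, so each difference within it rests on 1 array of the other region. The difference between slides was not tested. Acta1 is also the main actin of skeletal muscle, and of 10 skeletal muscle markers 6 were tested and none was called against the LV. Their summed signal, in units of the array's 75th percentile, was 12.8 to 14.6 in the RV, 14.5 to 15.3 in the LV and 13.7 to 15.7 in the septum, with Myh1 not well above background on any array. Pvalb, a calcium buffer of fast muscle, was called lower in the RV than in the septum (-1.83, adjusted p = 0.00151). The mean level of Pvalb was -2.05 in the RV, -1.93 in the LV and -0.22 in the septum. The part of skeletal muscle RNA in the Acta1 levels was not tested.

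Ankrd1, also called CARP, binds titin's spring region and acts in the nucleus as a cofactor of transcription. Its level was 4.78, 5.16, 6.33 and 5.65 in RV arrays 1 to 4, 6.57, 6.67 and 6.56 in the LV and 6.67, 6.79 and 6.90 in the septum. All 4 RV arrays lay below all 6 others, and RV array 3 came closest to them. The difference was -1.12 (95% interval -1.79 to -0.46, adjusted p = 0.0709) from the LV and -1.31 (-1.97 to -0.64, adjusted p = 0.0633) from the septum, and neither was called. With the slide as a block both were called (adjusted p = 0.0153 and 0.0135), and blocking on the replicate number gave adjusted p = 0.0474 and 0.0481.

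Ankrd23, or DARP, belongs to the same titin-binding family and gave the largest called difference among the 10 genes. The brighter of its 2 probes read 3.18, 3.57, 4.74 and 4.14 in the RV, 5.16, 5.30 and 5.78 in the LV and 5.13, 5.30 and 5.93 in the septum. RV and other arrays did not overlap. The RV was 2.84-fold below the LV (-1.50, 95% interval -2.30 to -0.71, adjusted p = 0.0493) and 2.92-fold below the septum (-1.55, -2.34 to -0.76, adjusted p = 0.0645), so that the first passed the test and the second did not. The other probe read 0.74, 0.98, 1.88 and 1.22 in the RV, 2.47, 2.52 and 2.66 in the LV and 2.31, 2.52 and 2.84 in the septum. By this probe both differences, each -1.35, were called (adjusted p = 0.0188 and 0.0265). Within slides 1 and 2 the RV minus LV difference of the brighter probe was -1.86 and -1.34.

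Ankrd2, the member of the family best known from skeletal muscle, read -3.39, -3.10, -2.79 and -3.49 in the RV, -2.28, -2.31 and -2.82 in the LV and -2.57, -2.31 and -3.02 in the septum. On slide 1 both RV arrays were below the LV and septum arrays, but RV array 3 lay above LV array 3 and septum array 3, all on slide 2. The difference was -0.72 (adjusted p = 0.106) from the LV and -0.56 (adjusted p = 0.295) from the septum, and neither was called. Within slide 2 these were -0.32 and -0.12.

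**Figure D2:**
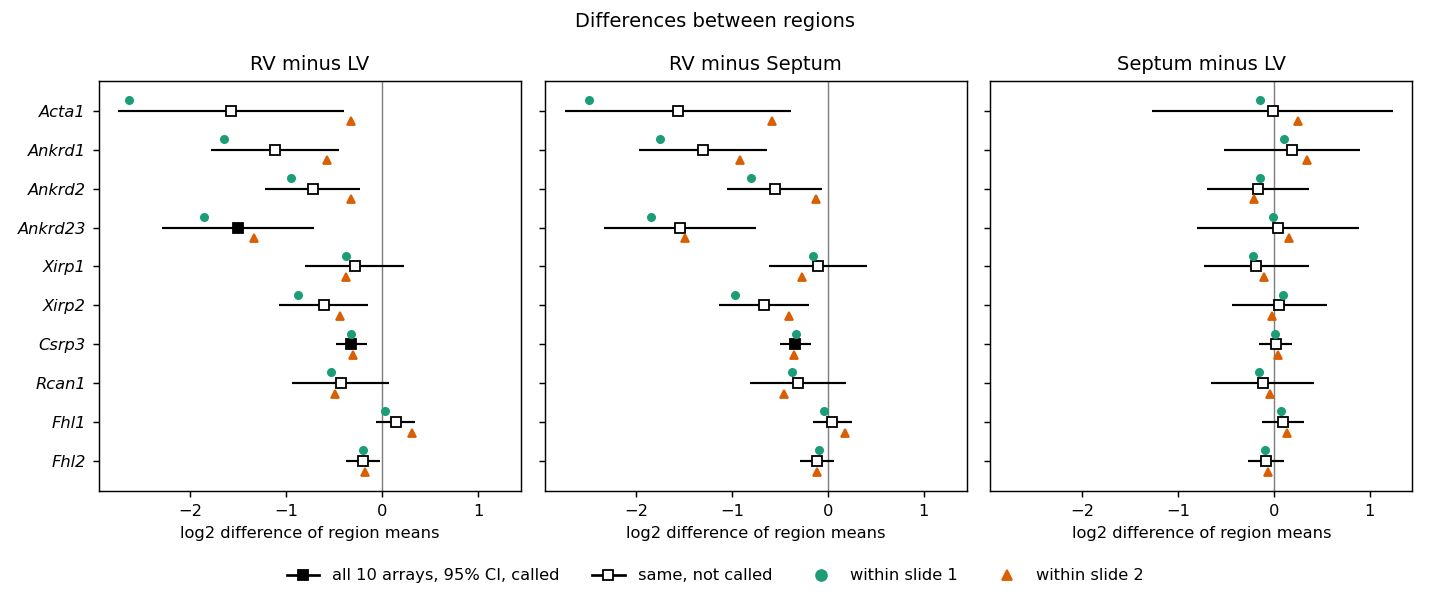
Log2 differences of region means (horizontal axis) for the 10 genes. Squares with lines are the estimates over all 10 arrays with 95% intervals, filled where called. Circles and triangles are the differences within slide 1 and slide 2, and slide 2 held 1 LV and 1 septum array. Ankrd23 and Csrp3 are filled for RV minus LV and Csrp3 for RV minus septum, and all septum minus LV estimates lie between -0.18 and 0.19.

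Csrp3, the muscle LIM protein of the Z-disc, had a small difference with little spread. It read 7.13, 7.08, 7.21 and 7.01 in the RV, 7.50, 7.37 and 7.42 in the LV and 7.45, 7.44 and 7.46 in the septum. No RV array reached any other array, and RV array 3 was again the highest of the RV. The RV was 1.25-fold below the LV (-0.32, 95% interval -0.48 to -0.16, adjusted p = 0.0421) and 1.27-fold below the septum (-0.34, -0.50 to -0.18, adjusted p = 0.0477). The RV minus LV difference was -0.33 within slide 1 and -0.31 within slide 2.

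Xirp1 and Xirp2 encode the Xin proteins, which bind actin at the intercalated disc. Xirp2 read 1.30, 1.35, 2.18 and 1.90 in the RV, 2.27, 2.14 and 2.48 in the LV and 2.40, 2.21 and 2.46 in the septum. RV array 3 lay between LV arrays 2 and 1, and all RV arrays were below the septum. Its differences of -0.61 from the LV (adjusted p = 0.142) and -0.67 from the septum (adjusted p = 0.171) were not called. With the slide as a block both were called, at -0.68 and -0.74 (adjusted p = 0.0113 and 0.0124).

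Xirp1 read 1.67, 1.82, 2.23 and 2.32 in the RV, 2.02, 2.22 and 2.65 in the LV and 1.84, 1.96 and 2.54 in the septum. In each region the arrays of slide 2 were the highest, by 0.55 on average, and the regions overlapped. The pooled difference from the LV was -0.29 (adjusted p = 0.547), while it was -0.38 within each slide and called with the slide as a block (-0.38, adjusted p = 0.0111). Against the septum it was -0.11 (adjusted p = 0.895) and was not called with the block either (adjusted p = 0.130).

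Rcan1, the calcineurin inhibitor that calcineurin itself can induce, followed the slides in the same manner. Its level was 3.72, 3.79, 4.35 and 4.23 in the RV, 4.21, 4.38 and 4.79 in the LV and 4.04, 4.23 and 4.75 in the septum. Slide 2 lay above slide 1 by 0.53 on average, and on each slide every RV array was below every LV and septum array. The pooled differences of -0.43 from the LV and -0.32 from the septum were not called (adjusted p = 0.327 and 0.598). They were -0.53 and -0.41 with the slide as a block, and called (adjusted p = 0.00352 and 0.0127).

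Fhl1 and Fhl2 are proteins of LIM domains alone that bind titin. Fhl1 was the gene of the set that was not lower in the RV, where it read 4.82, 5.01, 5.05 and 4.96, against 4.91, 4.86 and 4.69 in the LV and 5.02, 4.90 and 4.82 in the septum. The regions overlapped, and the difference of 0.14 from the LV had a 95% interval of -0.06 to 0.34 (adjusted p = 0.441). Fhl2 read 8.74, 8.55, 8.65 and 8.55 in the RV, 8.91, 8.78 and 8.78 in the LV and 8.69, 8.81 and 8.72 in the septum. All RV arrays of Fhl2 were below the LV by a small distance, with a difference of -0.20 that was not called (adjusted p = 0.205), and they overlapped with the septum (-0.11, adjusted p = 0.595).

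The 4 genes whose RV arrays all lay below all LV arrays were Ankrd1, Ankrd23, Csrp3 and Fhl2, and the 5 whose RV arrays all lay below all septum arrays were Acta1, Ankrd1, Ankrd23, Xirp2 and Csrp3. Of all probes, 11.1% were placed in this way against the LV and 7.82% against the septum. With the slide as a block, 6 of the 10 genes were called lower in the RV than in the LV, where 10.4% of all probes were, namely Ankrd1, Ankrd23, Xirp1, Xirp2, Csrp3 and Rcan1. Against the septum the 5 genes Ankrd1, Ankrd23, Xirp2, Csrp3 and Rcan1 were called, where 4.72% of all probes were. A block of the replicate number also gave counts of 6 and 5, where 8.69% and 3.77% of all probes were called lower. Replicates 1 and 2 of every region lay on slide 1 and the remaining arrays on slide 2, so the number and the slide cannot be told apart fully.

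**Figure D3:**
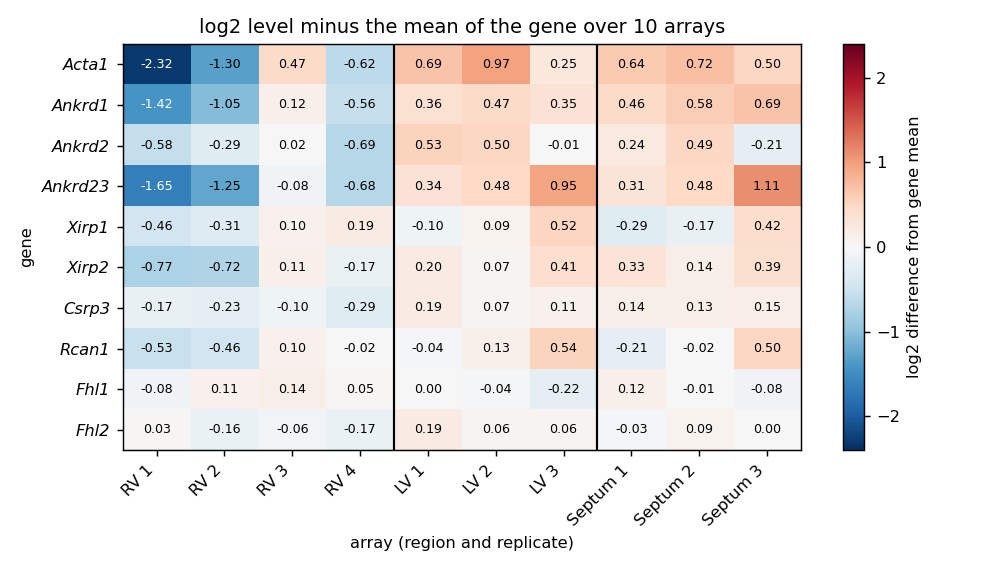
Colour and printed value give the log2 level of each gene (rows) on each array (columns) minus the mean of the gene over the 10 arrays, with lines between the regions. RV arrays 1 and 2 are below the mean in 9 of 10 rows, RV array 4 in 8 and RV array 3 in 3.

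The RV arrays were spread out in these genes, with RV arrays 3 and 1 at the ends. On slide 1 were RV arrays 1 and 2 and LV arrays 1 and 2. On slide 2 were RV arrays 3 and 4 and LV array 3. Slide 2 lay above slide 1 in Acta1, Ankrd1, Ankrd23, Xirp1, Xirp2 and Rcan1, by 0.42 to 0.80. Csrp3 hardly differed (0.0012), and Ankrd2, Fhl1 and Fhl2 were lower on slide 2 (-0.26 to -0.046). The part of the slide in the spread of the RV arrays was not tested. RV array 3 was the highest RV array for 8 of 10 genes, and RV array 1 was the lowest of all 10 arrays for 6. Summed over the 10 genes, RV array 3 lay at 22.9% of the distance between the LV mean and the mean of the other RV arrays, whereas RV arrays 1, 2 and 4 lay at 201%, 138% and 81.2% of the distance of their own remaining arrays. Dixon's test, run gene by gene on the 4 RV arrays, flagged none of them for any of the 10 genes (gap over range 0.19 to 0.60). With 4 values it can flag only a very large gap, and it cannot see a shift of 1 array shared by many genes. It therefore does not decide whether RV array 3 was aberrant. For other probes called lower in the RV without the array in question, RV array 3 lay at 64.2%, and the other RV arrays at 96.8% to 101%. For probes called higher, RV array 3 lay at 96.4%. Without RV array 3, Acta1, Ankrd1, Ankrd23 and Csrp3 were called lower than in the LV and than in the septum (4 of 10 in both), where 1.32% and 0.817% of all probes were. Leaving out any other single array left 0 of the 10 genes called in limma, for either comparison. With all arrays, 7 and 6 of the 10 genes had an unadjusted limma p below 0.05, as had 5992 and 4249 of the 30234 probes.

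**Figure D4:**
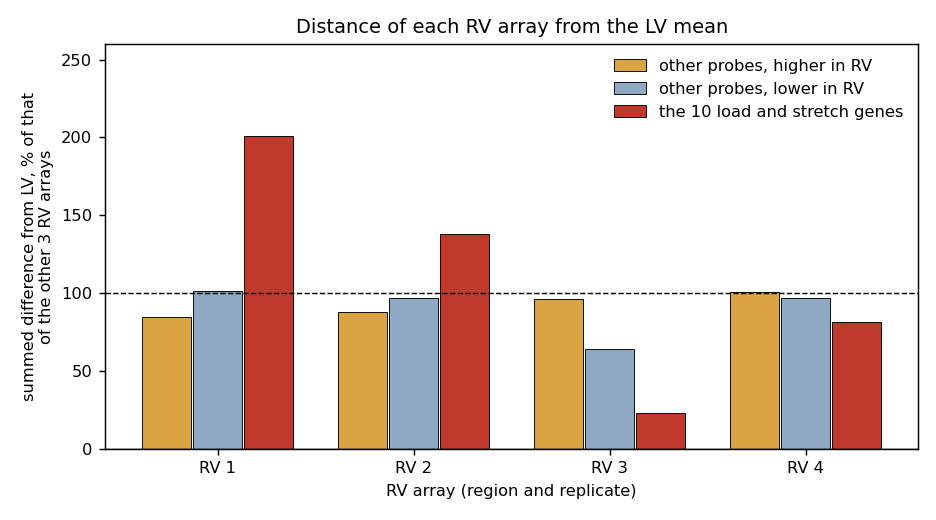
For each RV array (horizontal axis), bars give its difference from the LV mean, summed over genes or probes, as a percentage of the mean difference of the remaining 3 RV arrays, with a dashed line at 100%. The bar of the 10 genes is at 22.9% for RV array 3 and at 201% for RV array 1. The bars of other probes called higher or lower lie between 64.2% and 101%. RV arrays 1 and 2 are on slide 1 and RV arrays 3 and 4 on slide 2.

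The RV arrays also differed in markers of other cells. The summed signal of 6 mesothelium markers was 7.51 on RV array 3 and 14.7 to 21.9 on the other RV arrays, against 4.42 to 7.18 in the LV and 1.41 to 3.04 in the septum. The sum of the 7 smooth muscle markers tested was 314 on RV array 3, 202 to 255 on the other RV arrays and 201 to 231 in the LV and septum. Of these 7, 5 had higher means in the RV than in either other region, with medians of 0.59 from the LV and 0.62 from the septum. None was called. Tagln, Cnn1 and Myh11 were higher on every RV array than on any LV array. Acta2 was lower than in the LV by its brightest probe (-0.31), whereas its 2 dimmer probes were higher (1.38 and 1.22) and not called. Of 7 fibroblast markers 3 (Dcn, Pdgfra and Tcf21) were called higher in the RV than in the LV, with sums of 346 to 408 in the RV, 225 to 275 in the LV and 279 to 329 in the septum. Of 7 adipocyte markers 4 were called higher than in the LV, among them the adipokine Adipoq, which was at least 14.5-fold higher and not well above background on any LV array. The other 3 (Lep, Pparg and Fabp4) had lower means in the RV, by -0.24 to -0.15, and were not called. The sums of the list overlapped, at 111 to 136 in the RV, 108 to 134 in the LV and 101 to 134 in the septum. Fabp4 was the brightest of the 7 on every array and made up most of each sum. The overlap of the sums therefore does not hold for the 4 called genes, each of which was higher on every RV array than on any LV array. Against the septum, 5 of 6 mesothelium markers, 2 adipocyte markers and 1 fibroblast marker were called higher. The sum of the cardiomyocyte markers was 4497 to 4839 in the RV, 4826 to 5450 in the LV and 4380 to 5304 in the septum, with a median difference of -0.13 from the LV and -0.11 from the septum and 1 of 10 called lower in each. That marker was Mybpc3, the cardiac myosin-binding protein C, at -0.47 (adjusted p = 0.00891) and -0.40 (adjusted p = 0.0247). None of 6 atrial markers tested was called, but all 6 had lower means in the RV than in the septum, with a median of -1.61. Against the LV 2 were lower and 4 higher, with a median of 0.13. Their sums were 27.6 to 109 in the RV, 104 to 152 in the LV and 112 to 586 in the septum, the highest on septum array 1. Nppa, at a mean level of 6.61, made up most of the sums in the LV. Bmp10 was not well above background on any array. None of 6 endothelial or 12 immediate early genes was called, and the immediate early genes, which respond to handling within minutes, had a median difference of 0.02 from the LV. The part of cell mixture in the differences of the load and stretch genes was not tested.

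Of 16 partners of these proteins at the Z-disc and on titin, 15 were tested, and 1 was called lower in the RV than in the LV, where 1.55% of all probes were. The RV mean was below the LV mean for all 15, with a median difference of -0.34 and a range of -0.76 (the actin crosslinker Flnc, adjusted p = 0.106) to -0.010. The called gene was Pdlim5, a PDZ and LIM protein of the Z-disc, at 4.91 to 5.26 in the RV and 5.50 to 5.72 in the LV (-0.51, adjusted p = 0.0419). Another probe of Pdlim5 was called as well, and a dim one was not (0.12). Against the septum the RV mean was lower for 14 of 15, with a median of -0.27, and none was called by its brightest probe. Ttn itself, titin, had the smallest p there, with a difference of -0.37 (adjusted p = 0.150). The probes of Ttn disagreed, since a dimmer one was called lower against the septum (-0.44, adjusted p = 0.0294) and the LV (-0.50, adjusted p = 0.0122), and another was not called against either.

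Calcineurin and NFAT signalling showed no common direction, with 8 of 15 genes lower and 7 higher than in the LV and a median of -0.02. Rcan2, the heart and brain relative of Rcan1, was the 1 gene called. It read 5.68, 5.78, 5.91 and 5.79 in the RV and 6.19, 6.30 and 6.17 in the LV, and the RV was lower on every array (-0.43, adjusted p = 0.0240). Its difference from the septum was -0.30 (adjusted p = 0.127), while a dimmer probe of Rcan2 was called there (-0.35, adjusted p = 0.0418). A dimmer probe of Nfatc4, one of the NFAT factors, was also called lower than in the septum (-1.84, adjusted p = 0.0419). The brightest probe of Nfatc4 went the other way, at 0.43 in the RV and 0.35 in the septum, and was not called.

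Of the transcription factors and targets of SRF and of the YAP and TEAD pathway, 14 of 15 genes were tested and none was called. Their medians were -0.07 from the LV and -0.08 from the septum. Myocd, the cofactor myocardin, had the smallest p against the LV (-0.42, adjusted p = 0.0684) and Vgll3, a TEAD-binding protein, against the septum (0.51, adjusted p = 0.0597). None of 16 genes of the costamere and intercalated disc was called by its brightest probe, with Cdh2, or N-cadherin, at -0.18 from the LV (adjusted p = 0.226) and Dmd, or dystrophin, at -0.17 from the septum (adjusted p = 0.330). A dimmer probe of Dmd was called lower than in the LV (-0.45, adjusted p = 0.0245) and the septum (-0.42, adjusted p = 0.0450), and another was called against neither (0.06 and 0.08).

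Among 11 genes of stretch-gated and related channels, Piezo2 was called higher in the RV than in the LV (1.60, adjusted p = 0.0197). Its signal exceeded background clearly on 4 of 4 RV arrays and on 1 of 3 LV arrays. Against the septum none was called, and Trpv2, a channel of the TRP family, had the smallest p of the list (0.21, adjusted p = 0.213). Csrp2, a relative of Csrp3 known from smooth muscle, differed in the opposite direction to Csrp3. It read 4.13, 4.21, 4.83 and 4.49 in the RV, 3.05, 2.90 and 2.72 in the LV and 3.60, 2.97 and 3.36 in the septum, and was called against both (1.52, adjusted p = 0.00449, and 1.11, adjusted p = 0.0257). In the 11 relatives of the load and stretch genes, Csrp2 and Rcan2 were called against the LV and Csrp2 against the septum.

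**Figure D5:**
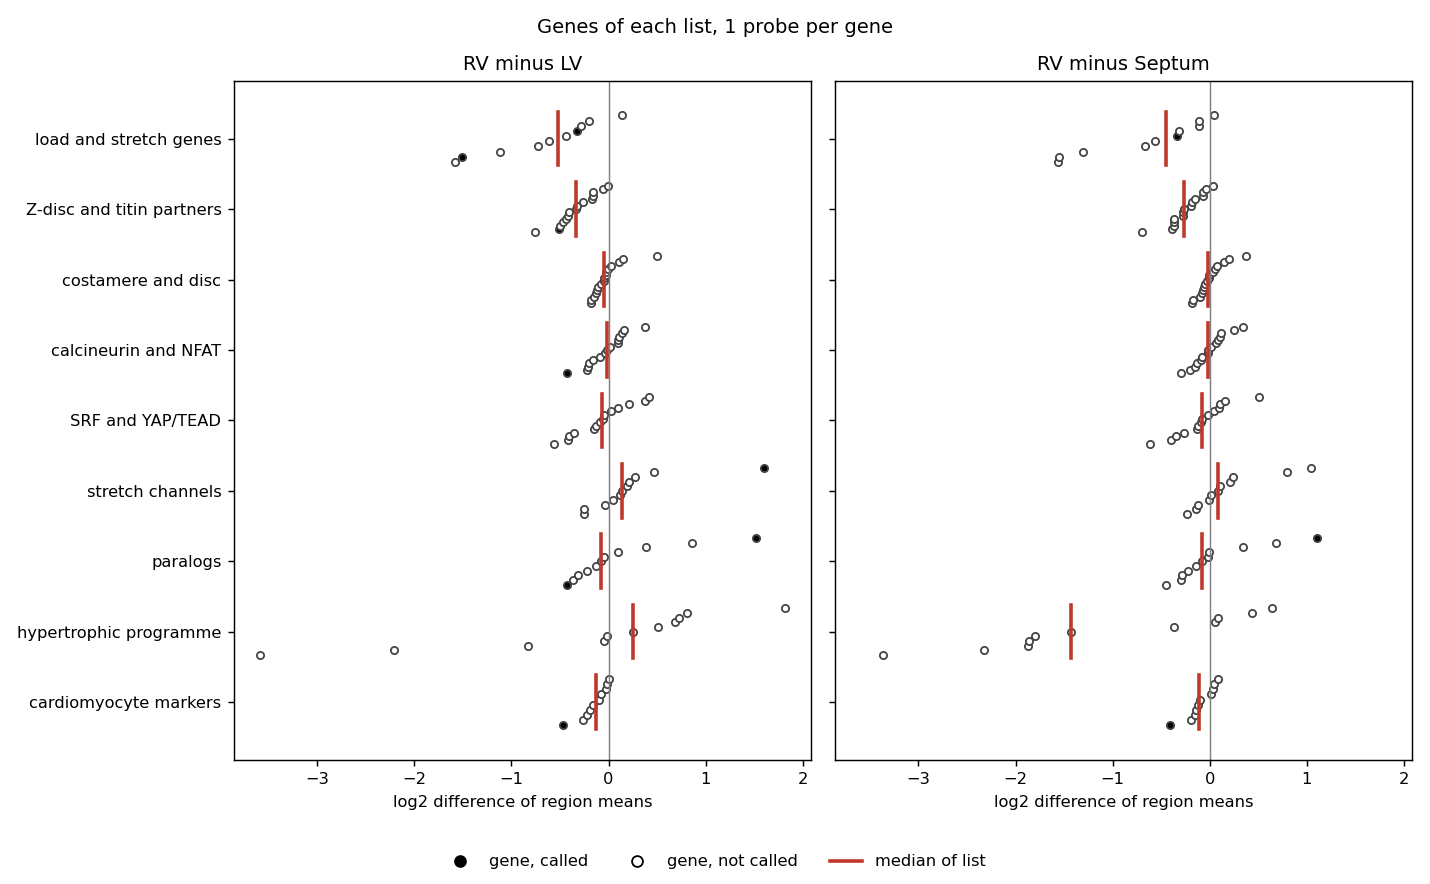
Each point is the log2 difference of region means (horizontal axis) of 1 gene, filled where called, in rows by gene list, with a red line at the median of the list. The medians are -0.52 for the load and stretch genes, -0.34 for Z-disc and titin partners and -0.13 for cardiomyocyte markers in RV minus LV.

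None of 11 genes of the hypertrophic programme was called against either region by its brightest probe, and they had no common direction. Against the LV 5 were lower and 6 higher, with a median of 0.25 and a range of -3.59 to 1.82. The 5 were Nppa, Nppb, Myh7, Myh6 and Tnni1, and the 6 were Myl4, Myl7, Postn, Timp1, Spp1 and Lgals3. The list mixes cell types, since Myl4, Myl7 and Nppa are also atrial markers here and Postn a fibroblast marker. Myh7 had means of 3.19 in the RV, 4.03 in the LV and 5.06 in the septum. Against the septum 7 were lower and 4 higher, with a median of -1.43. A dimmer probe of Lgals3, the galectin of macrophages, was called higher than in the LV (0.70, adjusted p = 0.0327). Nppa, the atrial natriuretic peptide, differed by -2.21 from the LV (adjusted p = 0.0504) and by -2.32 from the septum (adjusted p = 0.0605). Nppb, the brain natriuretic peptide, read 1.19, 1.72, 5.11 and 3.55 in the RV and 6.10, 5.76 and 7.57 in the LV, with RV array 3 again the highest of the RV (-3.59, adjusted p = 0.0614).

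Across all 10 arrays, the genes closest to Ankrd23 were found by the root mean square difference of levels centred on each gene's mean, among 14640 other genes. They were Hspa1l, an Hsp70-type chaperone (0.22), Ankrd45 (0.22) and Mybpc2, the fast muscle myosin-binding protein C (0.24), where Ankrd23 itself had an SD over arrays of 0.92. Closest to Csrp3, with an SD of 0.18, were Tmem116 (0.044), the trafficking protein Tmed9 (0.050) and the deubiquitinase Usp47 (0.052). Within the set, Xirp1 and Rcan1 (0.11) and Csrp3 and Fhl2 (0.11) were the closest pairs. The measure is not scaled, so genes that vary little, such as Csrp3 and Fhl2, lie close by it. Xirp1 and Rcan1 were both higher on slide 2, by 0.55 and 0.53.

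The septum and the LV had similar levels of these genes. The differences, septum minus LV, ran from -0.18 for Xirp1 to 0.19 for Ankrd1, with 5 genes lower and 5 higher, a median of 0.0019 and overlapping arrays for all 10. No gene had an unadjusted p below 0.05. The 95% intervals were wide for Acta1 (-1.27 to 1.24) and Ankrd23 (-0.80 to 0.89) and narrow for Csrp3 (-0.15 to 0.19). The genes with the smallest p in each other gene list, those of cell type markers left out, were Myoz1, Spp1, Vgll4, Cdh2, Csrp2, Piezo2 and Pdlim5, none of them called.

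Under median scaling, scaling by the probes detected on all arrays, quantile normalization and normexp, 9 of 10 genes stayed lower in the RV. This held against the LV and against the septum, while the calls moved. The authors' values have the scaling used here and were nearly identical, so their count of 9 was no separate check. Scaled by the median, 0 of the 10 genes were called against either region, and scaled by the probes detected on all arrays, Ankrd23 passed against the LV (1 of 10, adjusted p = 0.0492) and none of the 10 against the septum. Over all probes, 470 were called lower and 697 higher against the LV, and 284 and 893 under the second of these scalings. Against the septum 264 were called lower and 364 higher, and 126 and 341 after scaling by the median.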

How the data were processed

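Total RNA of mouse RV (4 arrays), LV (3) and septum (3), prepared with TRIzol from powdered frozen tissue, was labelled with Cy3 and hybridised to single-colour Agilent arrays. The titles gave the region and replicate number of each sample, and different individuals were used for each experiment according to the design text. The authors deposited the intensity of each spot as written, per the file headers, by version 11.5.1.1 of Agilent Feature Extraction, with the background subtracted and no scaling between arrays. The authors also deposited log2 values per probe, which lay within 0.05 of those computed here for 100% of the probes once a constant was removed, and which served as an alternative. A level is log2 of the processed signal minus the array's 75th percentile. Controls and the 56 to 128 spots flagged as outliers on an array were removed, and repeated spots of a probe averaged. None of the spots was saturated, and 53.7% to 64.0% were well above background. Of 56605 probes 30234 (53.4%) were tested, because in 1 or more regions every array had them well above background. Names came from the RefSeq identifier of the probe and a mouse gene table of assembly GRCm38.p6 (32994 probes named). A gene is given by its brightest probe.

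Regions were tested in limma, version 3.58.1 under R 4.3.3, with 1 mean per region over all 10 arrays, two-sided moderated tests (2.46 prior degrees of freedom) and Benjamini-Hochberg adjustment over all tested probes. The fits were tested on simulated data. The number of arrays limits the precision. The genes and lists were chosen with earlier results of these data known. All 10 genes are named, from each list up to 3 called genes with the largest difference or else that with the smallest p, and for each called gene the 3 closest genes.

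Slide 1 held replicates 1 and 2 of each region and slide 2 the remaining arrays. Deviations from the region means correlated at 0.36 to 0.64 in the 9 pairs of arrays with the same replicate number, at 0.091 to 0.58 in 8 other pairs on the same slide and at -0.56 to -0.21 in 16 pairs on different slides. On slide 2, RV replicate 4 correlated with LV and septum replicate 3 at 0.57 and 0.58, and RV replicate 3 with the same arrays at 0.43 and 0.44. Whether arrays of the same number came from the same mouse was not stated. An alternative took the replicate number as a block, in which RV replicate 4 carried no information. Further alternatives used quantile normalization, scaling on the median or by the probes detected on all arrays, normexp with an offset of 50 (on the median signal of each spot, since the mean signal was not among the columns used), the authors' table, no filter and a stricter filter, the slide as a block, each slide alone, the methods' analysis of variance with Tukey's correction, the compared regions alone, the mean over probes and the omission of each array.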

Additional observations from a re-analysis of the deposited data

How the results depend on the processing

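All arrays together called 2 genes lower in the RV than in the LV and 1 lower than in the septum. The count was 0 and 0 with median scaling, without the filter and with the compared regions alone. It was 1 and 0 with scaling by the probes detected on all arrays and 0 and 1 after quantile normalization. It was 1 and 1 after normexp and in the methods' analysis of variance after Benjamini-Hochberg adjustment. Unadjusted, that analysis gave 4 and 3, where 7.83% and 5.35% of all probes were lower past the threshold. Slide 2 alone held 1 LV and 1 septum array and is left out of these counts. With the mean over probes the count was 2 and 2. It was 6 and 5 with the replicate block and with the slide block, 7 and 4 with the replicate as a random effect (3331 and 1709 of 30234 probes called lower), and 5 and 4 within slide 1 (1.18% and 0.681%). With the slide as a block and RV replicate 3 left out, chosen after seeing the data, it was 8 and 7 (9.64% and 4.47%). Leaving out each array in turn gave 0 to 4 in both comparisons, with 4 only without RV replicate 3. The stricter filter gave 2 and 1, and so did the authors' table, which holds nearly the same values and is no separate check. The cause of these changes was not tested. For septum minus LV the count was 0 under each alternative, with slide 2 alone left aside.

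No RV minus LV difference of the 10 genes changed sign. For RV minus septum, Fhl1 became -0.042 within slide 1 and ran from -0.00035 to 0.099 as each array was left out, and Xirp1 ran from -0.24 to 0.11. For septum minus LV, where the differences were small, Acta1 became 0.037 after quantile normalization, 0.0066 with scaling by the probes detected on all arrays and 0.26 within slide 2. Ankrd23 became -0.022 with median scaling, -0.0078 after normexp and -0.014 within slide 1. With median scaling Xirp2 became -0.0083 and Csrp3 -0.046, and within slide 2 Xirp2 became -0.025. As each array was left out, Acta1 ran from -0.21 to 0.15, Ankrd2 from -0.34 to 0.026, Ankrd23 from -0.20 to 0.23, Xirp2 from -0.020 to 0.15, Csrp3 from -0.0099 to 0.053 and Rcan1 from -0.32 to 0.048. The omission of an array that leaves 2 in a region assumes that they vary like the others. All 11 probes were well above background on every array. Ankrd2 was the dimmest, with a mean of -3.19 in the RV, and the share of background in its signal was not tested.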
